A study of Mus musculus with 6 samples.

Results

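Fc receptors are the proteins through which immune cells sense antibodies. Of their genes, 10, together with the adaptor chains through which they signal, were followed in RNA of CD4+ T cells taken from the spleens of lean and obese mice: Fcgr1, Fcgr2b, Fcgr3, Fcgr4, Fcer1g, Tyrobp, Fcer2a, Fcgrt, Fcmr and Fcrl1. These 10 were taken by symbol from the 22899 genes of each table, and all 10 were found. The mice were of strain C57BL/6. The lean group had a normal diet and the obese group a high-fat diet with 60 kcal% fat, started at an age of 6 to 8 weeks and kept for up to 4 months. Flow cytometry was used to purify the CD4+ T cells, and each group had 3 libraries. Whether a library stands for 1 mouse is not stated in the labels; the p-values therefore reflect the spread among these libraries alone, which may be technical.

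An activating Fc receptor binds the constant part of an antibody but has no signalling motif of its own. It pairs with a small adaptor that carries an immunoreceptor tyrosine-based activation motif (ITAM), which Src-family kinases phosphorylate and which then recruits the kinase Syk. Fcer1g (the common gamma chain) and Tyrobp (DAP12) are such adaptors. The inhibitory receptor Fcgr2b carries instead an inhibitory motif (ITIM) that recruits phosphatases. In the spleen the activating IgG receptors belong to macrophages, monocytes, neutrophils and natural killer (NK) cells, while Fcer2a (CD23, a low-affinity IgE receptor), Fcrl1 and Fcmr (the IgM receptor, also reported on T cells) mark B cells. Conventional CD4+ T cells use the ITAMs of the CD3 and zeta chains and are not a usual source of the activating receptors. In the mouse genome (GRCm38), Fcgr2b (chr1:170960558-170976071), Fcgr4 (chr1:171018926-171029761), Fcgr3 (chr1:171051169-171065915) and Fcer1g (chr1:171229572-171234349) are neighbours on chromosome 1, which also carries Fcmr. Fcgr1 (chr3:96282909-96293969) and Fcrl1 lie on chromosome 3, Tyrobp and Fcgrt on chromosome 7, and Fcer2a on chromosome 8.

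Levels are given in FPKM (fragments per kilobase of transcript, scaled to the mapped fragments of the library), which accounts for length, so that genes can be compared with each other. Summed FPKM lay between 616104 and 656303 in lean and between 595106 and 630744 in obese libraries. Low values fell on steps of whole fragments in part, with a step score of 0.17 to 0.30 where 1 is the maximum, and the best steps corresponded to 17.8 to 22.1 M fragments per library. All 12 T cell markers were detected, which does not measure purity, with a summed level of 4154 to 4636 FPKM in lean and 3627 to 4416 FPKM in obese libraries. Transcripts of other cells were present in every library; erythroid markers summed to 176 to 478 FPKM in lean and to 4385 to 29137 FPKM in obese libraries, and their part in the results was not tested. Of 10788 tested genes, 678 (6.28%) passed limma at a Benjamini-Hochberg (BH) adjusted p under 0.05, with obese libraries higher for 622 and lower for 56. After median-of-ratios scaling the split was 434 higher and 173 lower, and after quantile normalization 322 and 112. Without lean 1 the test called 326 genes, of which 24 were lower, and without lean 2 it called 318, of which 19 were lower. Lower genes numbered 97 without lean 3 and 22 without obese 1.

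All 10 members passed the filter on low values, at least 1 FPKM in at least 3 libraries. Of the 6 myeloid members, 5 rose in obese libraries, and of the other 4 none passed. None fell (limma), nor was any lower at an unadjusted p under 0.05, while 7 were higher at that level, as were 2359 of all 10788 tested genes. The 5 that rose of 10 stand against 5.77% of all tested genes called higher, and the absence of a lower member against 0.519% called lower. Values of lean and obese libraries did not overlap for the 6 myeloid members, with obese libraries on top, as for 25.4% of all tested genes (31.5% in either direction), and overlapped for the other 4. The median difference in log2(FPKM + 1), obese minus lean, was 0.86 for the myeloid members and 0.47 for the B cell members, beside 0.10 for all tested genes. The B cell median rested on single libraries: it was 0.17 without obese 3, 0.23 without lean 3 and 0.815 without lean 2, where the myeloid median was 0.865. The median of all genes moved to −0.03 under median-of-ratios scaling and to −0.03 under quantile normalization.

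**Figure D1:**
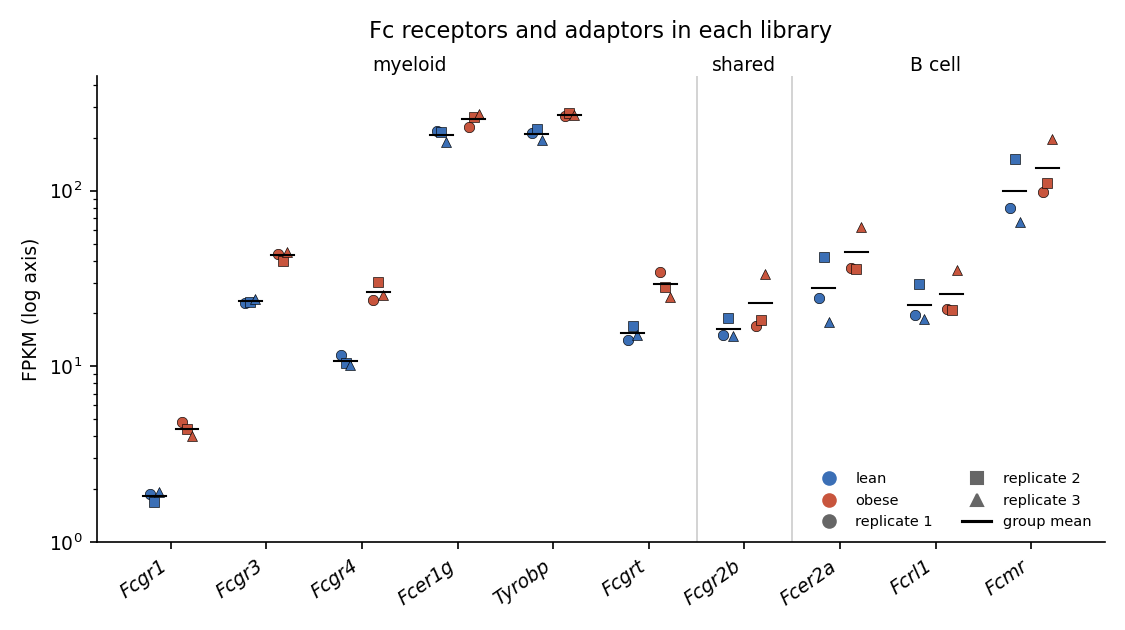
FPKM (log axis) of the 10 genes in each library, lean in blue and obese in red, with a symbol per replicate number and a bar at the group mean. Obese libraries lie above lean ones for the 6 myeloid members, while for Fcgr2b, Fcer2a, Fcrl1 and Fcmr the groups overlap, with lean 2 and obese 3 on top within their groups.

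The activating IgG receptors rose together. Fcgr3, the activating low-affinity receptor (CD16), stood at 22.85, 23.14 and 24.31 FPKM in lean 1 to 3 and at 43.80, 40.01 and 44.80 FPKM in obese 1 to 3. The libraries of a group lay close together and the groups were far apart. Its log2 difference was 0.84 ± 0.08 (SE; limma, BH-adjusted p = 5.53e-04). Fcgr4, an activating receptor of intermediate affinity found on monocytes, macrophages and neutrophils, had 11.56, 10.42 and 10.15 FPKM in lean against 23.82, 30.17 and 25.41 FPKM in obese libraries. It had the largest log2 difference of the 10 members, 1.23 ± 0.11 (SE; limma, BH-adjusted p = 5.53e-04). Fcgr1, the high-affinity receptor (CD64) of macrophages and monocytes, was the lowest of the members, with 1.88, 1.70 and 1.94 FPKM in lean and 4.85, 4.38 and 4.04 FPKM in obese libraries. Each obese library had more than each lean one, and the difference in log2(FPKM + 1), 0.93 ± 0.11 (SE; limma, BH-adjusted p = 0.00188), understates the ratio of the means, 2.40, because the level is low. The ratio of the means was 1.83 for Fcgr3 and 2.47 for Fcgr4. All 3 passed in each of the 6 fits that left out a library, with limma BH-adjusted p up to 0.0122, and under every other scaling tried. Fcgr3 and Fcgr2b share near-identical stretches in their antibody-binding part, so reads may have been split between them.

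The 250 bases before the transcription start of the 3 activating receptors and of their inhibitory counterpart are shown because the first 3 moved together and the last did not pass. Capitals mark GAGGAAG on either strand, a purine-rich sequence of the kind bound by ETS factors such as PU.1, a regulator of myeloid and B cells. The sequences are from RefSeq (GRCm38.p6), printed in the direction of the gene. They cover chr3:96293970-96294219 (minus strand) for Fcgr1, chr1:171059395-171059644 (minus) for Fcgr3, chr1:171018676-171018925 (plus) for Fcgr4 and chr1:170976072-170976321 (minus) for Fcgr2b. RefSeq lists a further start for Fcgr3, with a window of chr1:171059404-171059653 and the motif 7 bases before it; both Fcgr3 windows lie within the annotated span of the gene given above.
Fcgr1: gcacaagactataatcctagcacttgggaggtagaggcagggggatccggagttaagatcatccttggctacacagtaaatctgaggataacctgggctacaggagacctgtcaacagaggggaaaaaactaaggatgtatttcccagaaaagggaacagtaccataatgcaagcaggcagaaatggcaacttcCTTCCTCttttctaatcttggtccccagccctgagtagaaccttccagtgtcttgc
Fcgr3: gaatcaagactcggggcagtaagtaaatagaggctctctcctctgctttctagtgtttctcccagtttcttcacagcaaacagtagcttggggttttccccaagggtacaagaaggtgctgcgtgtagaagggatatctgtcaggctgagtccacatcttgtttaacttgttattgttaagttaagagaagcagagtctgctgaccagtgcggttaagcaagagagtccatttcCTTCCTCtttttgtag
Fcgr4: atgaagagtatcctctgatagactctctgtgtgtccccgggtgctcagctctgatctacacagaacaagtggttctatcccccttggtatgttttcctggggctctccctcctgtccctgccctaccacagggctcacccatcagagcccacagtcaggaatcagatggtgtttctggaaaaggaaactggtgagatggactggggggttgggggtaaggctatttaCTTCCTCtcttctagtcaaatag
Fcgr2b: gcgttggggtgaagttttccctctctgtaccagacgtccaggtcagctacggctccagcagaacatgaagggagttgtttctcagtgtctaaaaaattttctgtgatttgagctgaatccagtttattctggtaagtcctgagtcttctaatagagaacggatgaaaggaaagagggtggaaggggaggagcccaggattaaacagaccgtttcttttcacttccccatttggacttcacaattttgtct
In each of Fcgr1, Fcgr3 and Fcgr4 the motif occurred on the strand opposite to the gene, beginning 56, 16 and 23 bases before the start. Among the 9 members with a window in the table, it was found in these 3 and in Fcrl1, and 10.6% of all 32851 windows of that length held it. This exact run of 7 letters was absent from the windows of Fcgr2b, Fcer1g, Fcgrt, Fcer2a and Fcmr. Other purine-rich sequences were not searched for, so their absence from those windows is not shown. The motif was chosen after the sequences had been read. A match, or the lack of one, is therefore a description of letters only and tests no difference between the receptors.

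Added up, Fcgr1, Fcgr3 and Fcgr4 gave 36.29, 35.26 and 36.40 FPKM in lean and 72.47, 74.56 and 74.25 FPKM in obese libraries. The sum hardly varied within a group. Macrophage markers moved with it: 16 of 16 tested passed as higher, and their summed level was 836 to 907 FPKM in lean and 1962 to 2164 FPKM in obese libraries. Of 12 monocyte markers 8 passed as higher (754 to 786 against 859 to 979 FPKM summed), and none of either list was at 0 in all libraries. Ly6c2, with the largest lean mean of the monocyte list (317 FPKM), had a log2 difference of −0.10 (limma, BH-adjusted p = 0.601). Like Ccr2, Itgam and Spn, it did not pass. Of 14 neutrophil markers 7 passed as lower and none as higher (618 to 901 against 175 to 480 FPKM summed). S100a9, Ngp and S100a8 had the largest lean means of that list (210, 182 and 142 FPKM). Csf3r and Cxcr2 did not fall, with log2 differences of 0.17 and 0.10 (limma, BH-adjusted p = 0.606 and 0.749). Over all tested genes, 5.77% were called higher and 0.519% lower. The part of macrophages, monocytes and neutrophils in the receptor levels was not tested. In bulk samples, more cells of a type cannot be told apart from more RNA per cell. Relative to the mean log2 level of the macrophage markers, Fcgr3 lay lower in obese libraries (−0.44, −0.30 and −0.17) than in lean ones (0.30, 0.29 and 0.19), so it rose by less than those markers did. The same difference for Fcgr4 overlapped, between −0.99 and −0.62 in lean and between −1.29 and −0.70 in obese libraries. For Fcgr1, Fcgrt, Tyrobp and Fcer1g it was lower in each obese library than in any lean one. Its group means differed by −0.48, −0.53, −1.05 and −1.11, obese minus lean.

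The balance of activating and inhibitory receptor was examined as a ratio within each library, which does not depend on scaling. Fcgr2b, the ITIM-bearing receptor of B cells and myeloid cells, stood at 15.02, 18.82 and 14.92 FPKM in lean and at 16.93, 18.28 and 33.40 FPKM in obese libraries. Obese 3 was far above the rest, and the other 5 libraries overlapped. The log2 difference was 0.41 ± 0.23 (SE; limma, BH-adjusted p = 0.280), with a 95% interval of −0.10 to 0.93. The summed activating receptors were 2.42, 1.87 and 2.44 times Fcgr2b in lean and 4.28, 4.08 and 2.22 times in obese libraries, so that obese 3 fell within the lean range. For the individual receptors the ratio to Fcgr2b was higher in obese libraries by 0.83 (Fcgr1), 0.44 (Fcgr3) and 0.87 (Fcgr4) on the log2 scale, with exact permutation p = 0.3, 0.3 and 0.2 (2-sided). With 3 libraries against 3 such a test cannot go below 0.1. Leaving out 1 library moved the value of Fcgr3 between 0.24 (without obese 1) and 0.71 (without obese 3). In all, 7 ratios were tested, and BH adjustment gave 0.42 for these 3. Fcgr4 relative to Fcgr3 was 0.506, 0.450 and 0.418 in lean, against 0.544, 0.754 and 0.567 in obese libraries. The groups did not overlap, and the log2 ratio differed by 0.43 with the smallest p that the exact permutation test allows, 0.1 (BH-adjusted p = 0.35); it was 0.28 without obese 2.

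**Figure D2:**
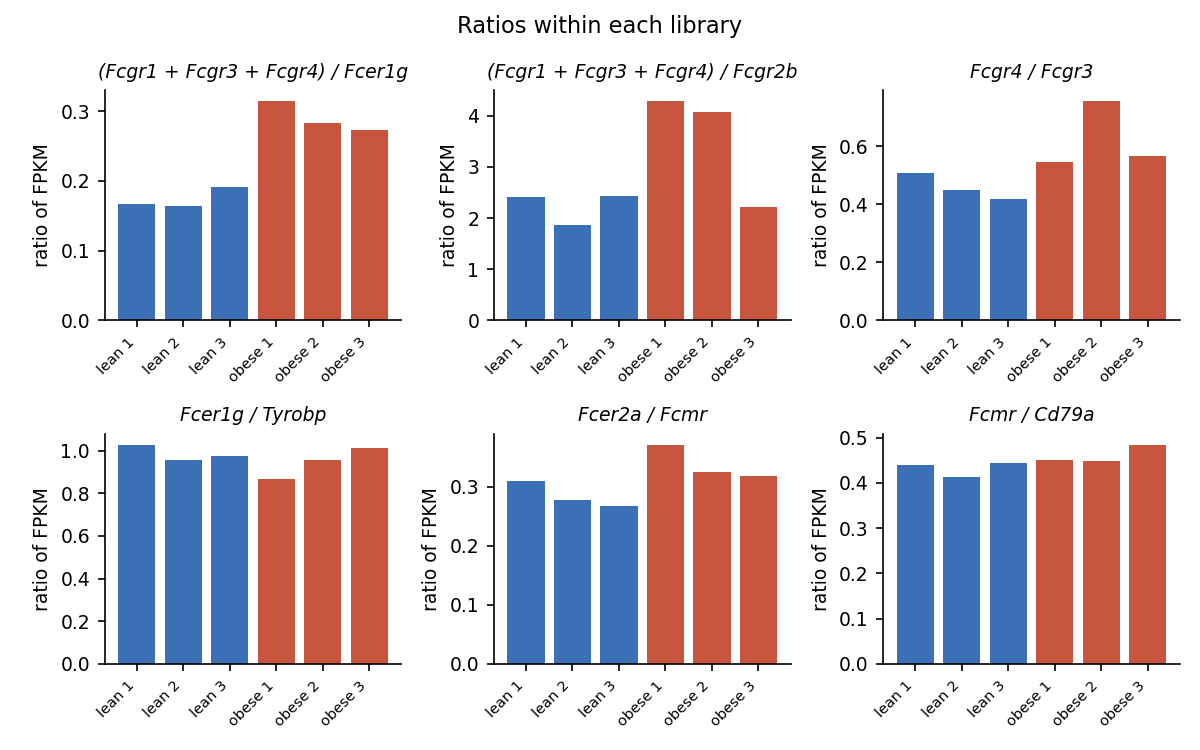
Ratios of FPKM within each library, lean in blue and obese in red, with axes from 0. Activating receptors relative to Fcer1g and Fcgr4 relative to Fcgr3 are higher in each obese library, activating receptors relative to Fcgr2b fall back in obese 3, and Fcmr relative to Cd79a stays between 0.412 and 0.484.

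The adaptors had the highest mean levels of the 10 members, although Fcmr in obese 3 reached the adaptors' lean range, and they differed least between the groups among the myeloid ones. Tyrobp had 211.5, 224.8 and 194.8 FPKM in lean and 265.8, 275.2 and 268.0 FPKM in obese libraries. The groups did not overlap, and the log2 difference was 0.36 ± 0.08 (SE; limma, BH-adjusted p = 0.0268). That call was lost without lean 1 and without any 1 obese library (limma, largest BH-adjusted p = 0.0935) and after median-of-ratios scaling (0.21; limma, BH-adjusted p = 0.221). Fcer1g had 217.2, 214.7 and 189.8 FPKM in lean and 230.7, 263.3 and 271.8 FPKM in obese libraries. Obese 1 was only slightly above lean 1, and the log2 difference of 0.30 ± 0.09 (SE) did not pass (limma, BH-adjusted p = 0.0861; 95% interval 0.09 to 0.50). The ratio of Fcer1g to Tyrobp was near 1 in every library, from 0.955 to 1.03 in lean and from 0.868 to 1.01 in obese libraries (log2 difference −0.06; exact permutation p = 0.5, BH-adjusted over 7 ratios 0.5), and its sign turned without obese 1.

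Relative to the adaptor, receptor transcripts were more abundant in obese libraries. Fcgr1, Fcgr3 and Fcgr4 together amounted to 0.167, 0.164 and 0.192 of the Fcer1g level in lean and to 0.314, 0.283 and 0.273 in obese libraries, and the groups did not overlap. This ratio was chosen after the values were seen and is given with no test. NK cells and neutrophils also use these adaptors. Of 12 NK cell markers 3 passed as lower in obese libraries and 9 did not pass. Their summed level overlapped (355 to 474 FPKM in lean, 273 to 363 FPKM in obese). At an unadjusted p under 0.05 (limma), 7 of the 12 were lower and none higher, with a median log2 difference of −0.39. At that level 433 of all 10788 tested genes were lower. Of the 3 called lower, Ncr1 and Klra4 did not pass in 4 of the 6 fits without a library. The neutrophil markers, 7 of 14 lower, are given above. Their part in the adaptor levels was not tested. Cd247, the zeta chain that serves as ITAM adaptor of the T cell receptor, stood above Fcer1g in all 6 libraries; Fcer1g was 0.534 to 0.546 of its level in lean and 0.619, 0.708 and 0.919 of it in obese libraries.

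Fcgrt encodes FcRn, which binds IgG inside cells and returns it to the surface, and which macrophages and endothelium express. It stood at 14.16, 17.02 and 15.06 FPKM in lean and at 34.54, 28.34 and 24.83 FPKM in obese libraries. Every obese library exceeded every lean one, with obese 1 highest. The log2 difference was 0.87 ± 0.13 (SE; limma, BH-adjusted p = 0.00506), and it passed in all 6 fits without a library (limma, BH-adjusted p up to 0.0283).

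None of the B cell members passed, and each varied widely within its groups. Fcer2a stood at 24.65, 41.81 and 17.80 FPKM in lean and at 36.48, 35.95 and 62.31 FPKM in obese libraries. Lean 2 exceeded obese 1 and obese 2, and the log2 difference of 0.70 ± 0.30 (SE) did not pass (limma, BH-adjusted p = 0.187; 95% interval 0.01 to 1.38). Fcmr had 79.63, 150.35 and 66.49 FPKM in lean and 98.41, 110.65 and 196.00 FPKM in obese libraries, with the same 2 libraries on top (log2 difference 0.47 ± 0.32, SE; limma, BH-adjusted p = 0.381). Fcrl1, an Fc receptor-like co-receptor with ITAMs of its own, had 19.56, 29.36 and 18.51 FPKM in lean and 21.29, 20.81 and 35.46 FPKM in obese libraries. Its log2 difference, 0.18 ± 0.23 (SE) with a 95% interval of −0.33 to 0.69 (limma, BH-adjusted p = 0.639), turned to −0.0614 without obese 3. Without obese 3 the log2 differences of Fcer2a, Fcmr and Fcgr2b were 0.44, 0.17 and 0.12, and without lean 2 they were 1.02, 0.82 and 0.52. The coefficient of variation within lean libraries was 44.0%, 45.6% and 26.6% for Fcer2a, Fcmr and Fcrl1, against 3.3% for Fcgr3 and 7.3% for Fcer1g.

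All 3 genes, and Fcgr2b, were highest in lean 2 among lean and in obese 3 among obese libraries. B cell markers had the same libraries on top: their summed level was 530, 953 and 493 FPKM in lean 1 to 3 and 676, 725 and 1217 FPKM in obese 1 to 3, and none of 14 passed (limma; 4 higher at an unadjusted p under 0.05, a share near that of all tested genes). The part of B cells in these levels was not tested. The proportion of Fcmr to Cd79a, a chain of the B cell receptor, was 0.440, 0.412 and 0.443 in lean and 0.451, 0.449 and 0.484 in obese libraries, without overlap. Its proportion to Cd3e of T cells ran from 0.180 to 0.363 in lean and from 0.243 to 0.558 in obese libraries. Relative to the mean log2 level of the 14 B cell markers, Fcmr overlapped. It lay at 1.902, 2.147 and 1.653 in lean and at 1.825, 1.934 and 1.936 in obese libraries. Fcer2a relative to Cd79a was higher in each obese library (0.146 to 0.167) than in any lean one (0.115 to 0.136). Fcrl1 relative to Cd79a overlapped (0.0805 to 0.123 in lean, 0.0844 to 0.0976 in obese). Relative to the mean of the 14 markers, Fcer2a overlapped instead (−0.191 to 0.325 in lean, 0.298 to 0.418 in obese). Fcrl1 was lower on that measure in each obese library (−0.498 to −0.332) than in any lean one (−0.17 to −0.07). Whether Fcmr, Fcer2a and Fcrl1 overlapped thus depended on the reference. None of these comparisons with Cd79a or the markers was tested. Fcgr2b relative to Cd79a lay between 0.0516 and 0.0995 in lean and between 0.0741 and 0.0824 in obese libraries. Relative to Fcmr, Fcer2a was 0.310, 0.278 and 0.268 in lean and 0.371, 0.325 and 0.318 in obese libraries. These values did not overlap (log2 difference 0.24; exact permutation p = 0.1, the smallest possible, and 0.35 after BH adjustment over the 7 ratios).

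**Figure D3:**
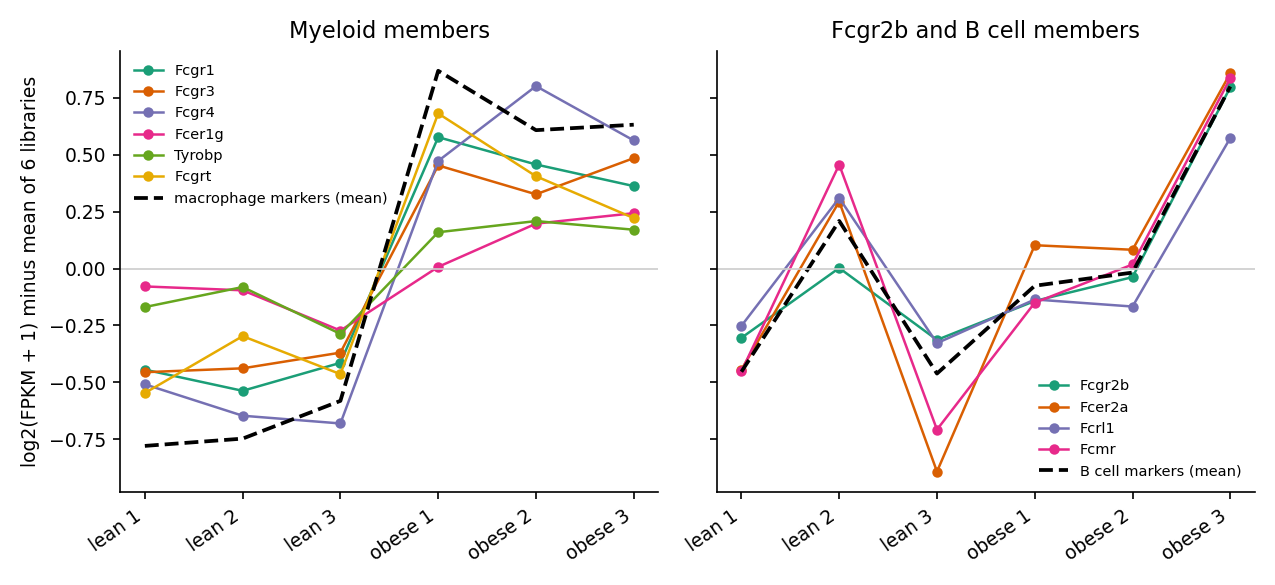
Values of log2(FPKM + 1) in each library, centred on the mean of the 6 libraries, for the myeloid members (left) and for Fcgr2b and the B cell members (right); dashed lines are the mean of the macrophage or B cell markers, and lines only join points of a gene. Myeloid members step up from lean to obese libraries, whereas the others peak in lean 2 and obese 3 together with the B cell markers.

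The myeloid and B cell members were also set against each other within libraries. The ratio of Fcer1g to Fcer2a was 8.81, 5.13 and 10.7 in lean and 6.33, 7.33 and 4.36 in obese libraries, and these values overlapped (log2 difference −0.42; exact permutation p = 0.4, BH-adjusted over 7 ratios 0.467). The difference was −0.72 without lean 2 and −0.20 without lean 3 or obese 3. The interval of Fcer2a, up to 1.38, includes the log2 differences of all myeloid receptors.

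**Figure D4:**
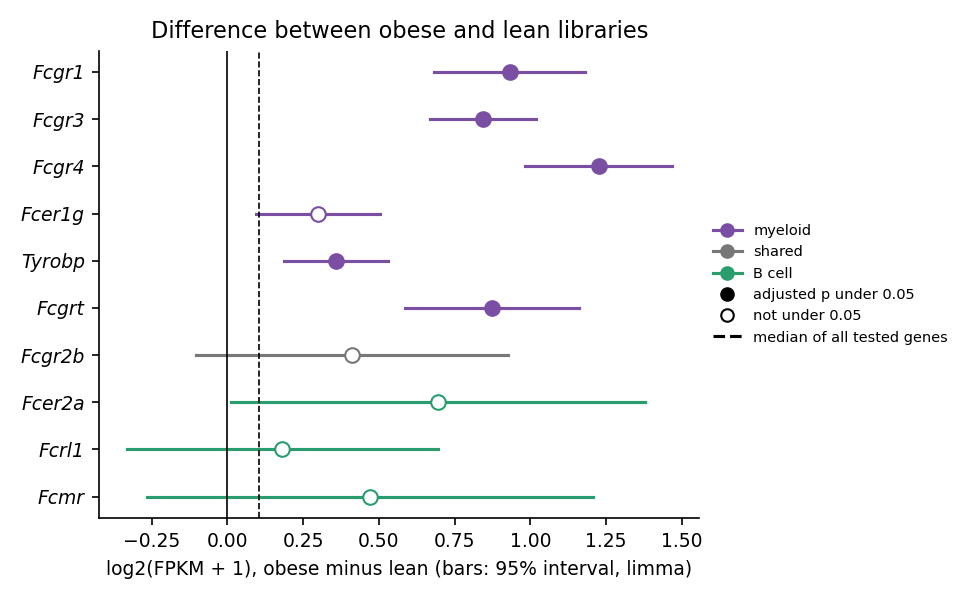
Log2 difference, obese minus lean, of each gene with its 95% interval from limma; filled circles passed at an adjusted p under 0.05, and the dashed line is the median of all tested genes, 0.10. Fcgr1, Fcgr3, Fcgr4 and Fcgrt have narrow intervals between 0.59 and 1.47, the adaptors lie near 0.3, and those of Fcgr2b and the B cell members are wide.

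Receptors that signal through Fcer1g or Tyrobp changed in both directions. Of 29 listed, 27 were found by symbol and 22 tested, of which 8 rose and 4 fell, with a median log2 difference of 0.19. Over all tested genes, 5.77% were called higher and 0.519% lower, with a median of 0.10. Clec4n (dectin-2), a fungal-sugar receptor of macrophages that pairs with Fcer1g, had 12.71, 10.13 and 11.89 FPKM in lean and 36.45, 32.17 and 31.37 FPKM in obese libraries. The groups were far apart and differed in log2 level by 1.45 ± 0.10 (SE), with a limma BH-adjusted p of 4.00e-04. Cd300c2, Pilrb1 and Sirpb1a, activating receptors of myeloid cells, rose by 1.29, 1.21 and 1.17, and these 4 passed in every fit without a library. The 4 that fell, named after their values were seen, were the NK cell receptors Klra8 (−0.77), Klrc2 (−0.75), Ncr1 (−0.62) and Klra4 (−0.54). Klra8 passed in all 6 fits without a library. Klrc2, Ncr1 and Klra4 passed in 2 of them (limma, BH-adjusted p up to 0.106). Without lean 1 the list had 7 calls in place of 12. Reads may be split among the near-identical copies of the Klra, Sirpb1 and Pira families. Trem2, a Tyrobp partner of tissue macrophages, stayed between 0.83 and 1.36 FPKM over the 6 libraries.

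Among 28 kinases and adaptors of ITAM signalling, 6 rose and none fell (limma), with a median log2 difference of 0.32. Of all tested genes, 5.77% were called higher and 0.519% lower. At an unadjusted p under 0.05 (limma), 13 of the list were higher and none lower. Over all 10788 tested genes, 2359 were higher and 433 lower at that level. The Src-family kinases Fgr and Lyn, which act in myeloid cells (Lyn in B cells too), rose in log2 level by 1.10 ± 0.16 and 0.73 ± 0.13 (SE), with limma BH-adjusted p of 0.00487 and 0.0130. Fgr stood at 11.27, 13.81 and 8.15 FPKM in lean and at 24.69, 24.43 and 23.96 FPKM in obese libraries. Fgr passed in all 6 fits without a library, and Lyn did not pass without lean 1 (limma, BH-adjusted p = 0.0557). Pik3ap1, an adaptor for phosphoinositide 3-kinase, had a log2 difference of 0.61 ± 0.14 (SE), with a limma BH-adjusted p of 0.0353, and passed in 2 of the 6 fits without a library. Vav3 and Gab2, named after their values were seen, rose by 0.44 and 0.50 and passed in none of them. The count was 2 without lean 1, and 3 without obese 1, without obese 3, after median-of-ratios scaling and after quantile normalization. Syk, the kinase common to the ITAM adaptors, had 19.88, 31.65 and 24.79 FPKM in lean and 31.23, 32.15 and 52.71 FPKM in obese libraries, with lean 2 and obese 3 again highest (log2 difference 0.57; limma, BH-adjusted p = 0.147). The T cell counterparts Lck and Zap70 had −0.01 and −0.12 (limma, BH-adjusted p = 0.953 and 0.358).

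Among 10 phosphatases and inhibitors of ITIM signalling, 1 rose, near the 5.77% of all tested genes: Ptpn11 (SHP-2), a tyrosine phosphatase found in most cells, by 0.32 ± 0.08 (SE; limma, BH-adjusted p = 0.0477). It did not pass in 5 of the 6 fits without a library, the exception being that without lean 3 (limma, largest BH-adjusted p = 0.144). Median-of-ratios scaling (limma, BH-adjusted p = 0.236) and quantile normalization (0.152) also ended the call. Inpp5d (SHIP-1), the lipid phosphatase that Fcgr2b recruits, stood at 53.91, 55.81 and 50.03 FPKM in lean and at 53.42, 58.58 and 61.67 FPKM in obese libraries. These values overlapped, and the log2 difference was 0.12 (limma, BH-adjusted p = 0.386). Of the 6 tested genes in the list of other Fc receptors and related chains, Cd247 included, none passed (limma, none at an unadjusted p under 0.05); the smallest p belonged to Lilrb4a (0.43; limma, BH-adjusted p = 0.226) and Fcrl5 (0.40; 0.315). Fcer1a, the alpha chain of the high-affinity IgE receptor of mast cells and basophils, lay between 1.64 and 4.66 FPKM over the 6 libraries, and its partner Ms4a2 stayed under the filter.

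**Figure D5:**
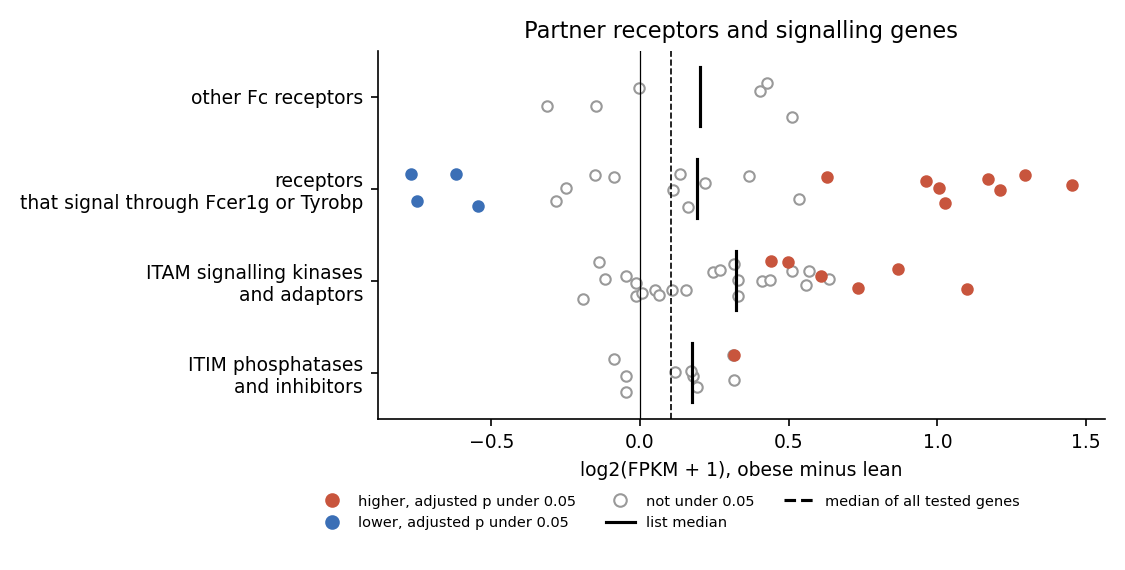
Log2 difference, obese minus lean, of each tested gene of the 4 lists, with the list median as a bar and the median of all tested genes as a dashed line. Receptors that use Fcer1g or Tyrobp spread from −0.77 to 1.45, with 8 genes higher and 4 lower, while the ITIM list stays between −0.09 and 0.32.

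The genes with patterns most like the adaptor Fcer1g over the 6 libraries, by Pearson r of log2(FPKM + 1) among 7781 candidates, were Adap1 and Csf2ra (0.991 each), Ifitm6 (0.990), Tnfrsf1b (0.988) and Rasgrp4 (0.987). Csf2ra, a chain of the receptor for the myeloid growth factor GM-CSF, had 11.05, 10.88 and 8.76 FPKM in lean and 12.83, 16.06 and 19.02 FPKM in obese libraries. For Fcer2a they were Icosl (0.995), Tnfrsf13b (0.991), Snn (0.989), Dok3 (0.988) and Trim7 (0.987). Icosl, the ligand of the T cell costimulator ICOS, was highest in lean 2 (26.16 FPKM) and obese 3 (31.83 FPKM), like Fcer2a itself. These genes were picked as the closest of many, so r is a description, and the libraries share the group difference.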

How the data were processed

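RNA of splenic CD4+ T cells was sequenced (Illumina HiSeq, per the labels' protocols). The authors deposited 1 table per library of FPKM values with 2 decimals. Per the submitters' processing notes, the tools were Bowtie and RSEM (no versions) and the build GRCm38, also called mm10. Annotation release, strandedness and filters were not given in the sources used here. Of the 22899 gene IDs, 21633 had an entry in the RefSeq gene table.

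Values were transformed to log2(FPKM + 1). The 10788 genes that reached 1 FPKM in 3 or more libraries entered limma 3.58.1 under R 4.3.3 (intensity trend, group as the sole term, 2-sided), with BH adjustment over all of them. Within-library ratios of FPKM used an exact permutation test (scipy 1.17.1). The limma script was checked on simulated data with known changes. FPKM carries no counts, so precision comes from the spread between libraries; low values were searched for whole-fragment steps.

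Members and lists were chosen with earlier results of these data known. Named genes were all members, up to 4 called genes per pathway list, taken by adjusted p from the smallest (or 2 genes where none was called), and the 5 genes most like Fcer1g and Fcer2a with a mean of at least 5 FPKM. Of the other marker lists, 12 of 12 erythroid, 2 of 8 plasma cell and 1 of 10 dendritic cell markers passed as higher (limma; at an unadjusted p under 0.05, 12, 8 and 2 higher, and 2 dendritic cell markers lower). None of 7 platelet, 8 mast cell and basophil or 12 T cell markers passed (limma; at an unadjusted p under 0.05, 1 higher, 2 lower and 0). A gene that the rule names is not reported here. Alternatives were other pseudocounts, filters and scalings, no trend, the replicate number as a block and each library left out.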

Additional observations from a re-analysis of the deposited data

How the results depend on the processing

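The count of members called higher was 5, and 4 or 5 under all 15 alternatives; none was called lower under any. Fcgr1, Fcgr3, Fcgr4 and Fcgrt passed under each, and Tyrobp was the member that was lost. Without a filter on low values 368 genes were called (344 higher, 24 lower), with 7 calls among the receptors that signal through Fcer1g or Tyrobp, 3 in the ITAM list and 0 in the ITIM list. Quantile normalization gave 434 (322 higher, 112 lower), and median-of-ratios scaling gave 173 lower genes; each gave 3 calls in the ITAM list and 0 in the ITIM list. The ITIM list also had 0 with at least 1 FPKM in all 6 libraries and without the trend. Leaving out 1 library gave 318 to 698 genes, 299 to 601 higher and 19 to 97 lower, with 7 to 11, 2 to 4 and 0 to 1 calls in those 3 lists. With 1 library left out, the group difference in the log2 ratio of Fcer1g to Tyrobp ran from −0.11 to 2.0e-04. The limma log2 difference of Fcrl1 ran from −0.0614 (without obese 3) to 0.38. The cause of these changes was not tested.

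Deviations of same-numbered libraries correlated weakly (0.032, 0.061 and 0.193). The last value, for lean 3 and obese 3, was the highest of all pairs, while lean 1 and lean 2 each correlated best with another number. With 3 libraries per group such correlations cannot decide whether the number pairs the libraries. With the number as a replicate block, 1015 genes were called (866 higher, 149 lower), 5 members were called higher, and no member changed its call. Depth is known only approximately, so the counting error of low levels such as that of Fcgr1 was not estimated.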
